A study of Mus musculus with 2 samples.

Results

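Pdlim2, the gene targeted by the shRNA, was the PDZ-LIM gene with the largest drop in signal in shPDLIM2 Lewis lung carcinoma (LLC) cells, and no other measured gene of the family had a higher signal in these cells. The family was taken as 7 genes by symbol in the annotation of the array, Pdlim1, Pdlim2, Pdlim3, Pdlim4, Pdlim5, Pdlim7 and Ldb3. Of these, 6 had a probe set, 1 each, among 19505 named genes. Pdlim7 had no probe set under its symbol, gene ID or RefSeq transcripts in this annotation, and it was not analysed here. The question put to the family was whether its other members were lost together with Pdlim2 or were higher in its place.

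The shPDLIM2 cells were LLC cells, a mouse lung carcinoma line labelled as C57BL/6, infected with virus that carried an shRNA against PDLIM2. The shEmpty cells were LLC cells infected in the same way with virus that carried the empty shRNA construct. Both were stable lines selected with puromycin, so that viral infection and drug selection were shared by both. RNA of each line was hybridized to 1 Affymetrix Clariom S array, and signals are given on a log2 scale as deposited. With 1 array per line there was no replicate, no p-value was computed, and the knockdown cannot be told apart from other differences between the 2 cultures or from effects of this shRNA on other transcripts.

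PDZ-LIM proteins join a PDZ domain, which docks onto the ends of other proteins, to zinc-binding LIM domains, which hold further partners. Most members sit on actin filaments through alpha-actinin, the protein that crosslinks actin in stress fibres and in the Z-discs of muscle. Pdlim1 to Pdlim4 form the ALP branch with a single LIM domain, and Pdlim5, Pdlim7 and Ldb3 form the Enigma branch with several. PDLIM2 is also known as a nuclear ubiquitin ligase that ends signalling by the p65 subunit of NF-κB and by STAT proteins.

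Signal without transcript was gauged on 1452 chemosensory receptor genes, for smell, pheromones and taste. The level that 95% of them did not exceed was 5.25 on the shPDLIM2 array and 5.12 on the shEmpty array, and genes brighter than this are described as above background. The log2 differences of these receptor genes, shPDLIM2 minus shEmpty, had a central 95% that ran from -0.79 to 1.01. The median log2 difference over all genes was 0.01. Among 48 genes with 2 probe sets, the differences of the sets varied with a standard deviation of 0.35 per probe set, which covers probe noise on these arrays and not variation between cultures. The labelled cell type was checked against marker genes. Of 8 epithelial genes, Krt8 and Krt18, the keratins of simple epithelium, were above background on both arrays, while Epcam and the cadherin Cdh1 were not above it on either. Nkx2-1, the lineage factor of lung epithelium, was at background as well, with log2 signals of 3.41 in shPDLIM2 and 3.40 in shEmpty cells. Of 7 genes of alveolar and airway epithelium, 2 were above background on at least 1 array. Sftpc was so on both, at 5.33 in shPDLIM2 and 5.13 in shEmpty cells, and Hopx in shEmpty cells alone. Vim, the mesenchymal filament protein, had log2 signals of 19.46 in shPDLIM2 cells and 19.56 in shEmpty cells. Of 10 mesenchyme and fibroblast genes, Vim included, 4 were above background on both arrays and 6 on at least 1. Of 7 macrophage and leukocyte genes and 6 endothelial genes, 1 each exceeded background, in shPDLIM2 cells, and the leukocyte marker Ptprc was at background on both arrays.

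Pdlim2, the ubiquitin ligase of the family, had a log2 signal of 8.33 in shPDLIM2 cells, against 10.04 in shEmpty cells. The shPDLIM2 signal was 30.6% of the shEmpty signal, a log2 difference of -1.71. Both signals were above background, by 3.08 in shPDLIM2 cells and by 4.92 in shEmpty cells on the log2 scale, so that the transcript was still detected in the knockdown line. In 16 of 19505 genes the difference was lower than that of Pdlim2. Among 1127 genes whose mean signal lay within 0.5 of that of Pdlim2, 1 had a lower difference, and the central 95% of these genes ran from -1.04 to 0.89. The probe set of Pdlim2 is annotated with 2 RefSeq transcripts, and its single value does not separate them.

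Pdlim1, also called CLP36, links alpha-actinin to stress fibres and was far above background in LLC cells. Its log2 signal was 15.99 in shPDLIM2 cells and 16.60 in shEmpty cells, which differ by -0.61, so that shPDLIM2 cells had 65.5% of the shEmpty signal. This was the second largest difference in the family and exceeded the spread of a single probe set (0.35), but it lay inside the central 95% of the receptor genes and inside that of 71 genes of like signal, which ran from -0.99 to 0.55. Among these 71 genes, 6 had a lower difference. For comparison, the control genes Actb, the cytoskeletal actin, and Gapdh, a glycolytic enzyme, had log2 differences of -0.24 and -0.43. The difference of Pdlim1 depended on the scale of the arrays in size though not in sign, at -0.48 once both arrays had been given the same distribution (quantile normalization).

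Pdlim5, also called ENH, carries protein kinase C to the Z-disc in muscle and retains the inhibitor Id2 in the cytoplasm. It had log2 signals of 11.43 in shPDLIM2 cells and 11.55 in shEmpty cells. The difference of -0.12 was smaller than the spread of a single probe set, and among 671 genes of like signal 301 had a lower one. The probe set is annotated with 9 RefSeq transcripts, more than that of any other member measured. A change in the balance of long and short forms would not be seen in 1 summarized value.

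The remaining members were at or near background. Ldb3, also called ZASP or Cypher, holds together the Z-disc of striated muscle. Its log2 signals of 5.55 in shPDLIM2 and 5.67 in shEmpty cells were above background by 0.30 in shPDLIM2 and 0.55 in shEmpty cells. Of the receptor genes, 2.62% on the shPDLIM2 array and 1.10% on the shEmpty array were at least as bright. It was no longer above background on either array when the 99th percentile of the receptor genes was used instead. Its difference of -0.12 equalled that of Pdlim5. Pdlim4, also called RIL, acts in the turnover of actin stress fibres and had log2 signals of 4.60 in shPDLIM2 cells and 4.79 in shEmpty cells, below background on both arrays. Pdlim3, also called ALP, is found at the Z-disc of muscle and had log2 signals of 3.96 in shPDLIM2 cells and 4.39 in shEmpty cells, also below background. Of the receptor genes, 58.5% on the shPDLIM2 array and 26.0% on the shEmpty array were at least as bright as Pdlim3. The differences of Pdlim3 and Pdlim4, at -0.43 and -0.19, are therefore differences between signals without detected transcript, and no fold is given for them. The plot of family signals shows how these genes separate from the others.

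**Figure D1:**
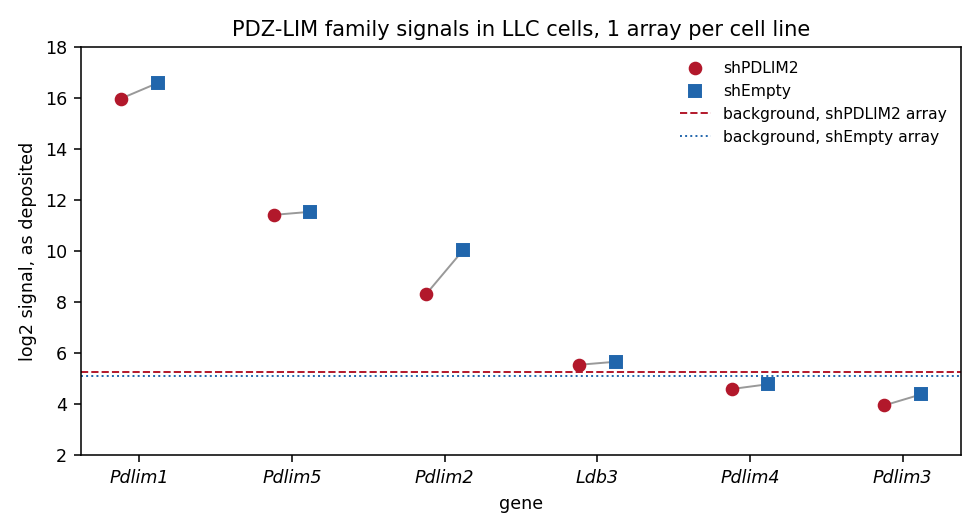
Log2 signal (vertical axis) of the 6 PDZ-LIM genes measured (horizontal axis) in shPDLIM2 (circles) and shEmpty (squares) LLC cells, 1 array each, with the background level of each array as a line. Pdlim1, Pdlim5 and Pdlim2 lie clear of background, Ldb3 lies 0.30 (shPDLIM2) and 0.55 (shEmpty) above it, and Pdlim4 and Pdlim3 lie below it; signals of different probe sets are not on a common scale of abundance.

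Counted over the family, 6 of 6 measured genes had a lower signal in shPDLIM2 cells, Pdlim3 and Pdlim4 below background included, beside 49.0% of all genes that were lower by any amount. Of the 4 genes above background on both arrays, 4 were lower, beside 54.7% of all genes above background on both arrays. Without Pdlim2, the target, the count was 5 of 5 and the median log2 difference was -0.19, beside 0.01 over all genes. The 3 of these 5 above background had a median of -0.12, beside -0.06 over all genes above background on at least 1 array. At a threshold of 2-fold, 1 gene of the family was lower, Pdlim2 itself, beside 2.01% of all genes, and 0 were higher, beside 1.74%. Among genes above background on both arrays these shares were 2.78% and 1.11%. Therefore, on these arrays no measured family member was higher as Pdlim2 was lower, and the one other difference larger than the probe spread in a detected member was the lower signal of Pdlim1. The distance between the differences of Pdlim1 and Pdlim2 was 1.10 on the log2 scale, and that between Pdlim5 and Pdlim2 was 1.59.

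**Figure D2:**
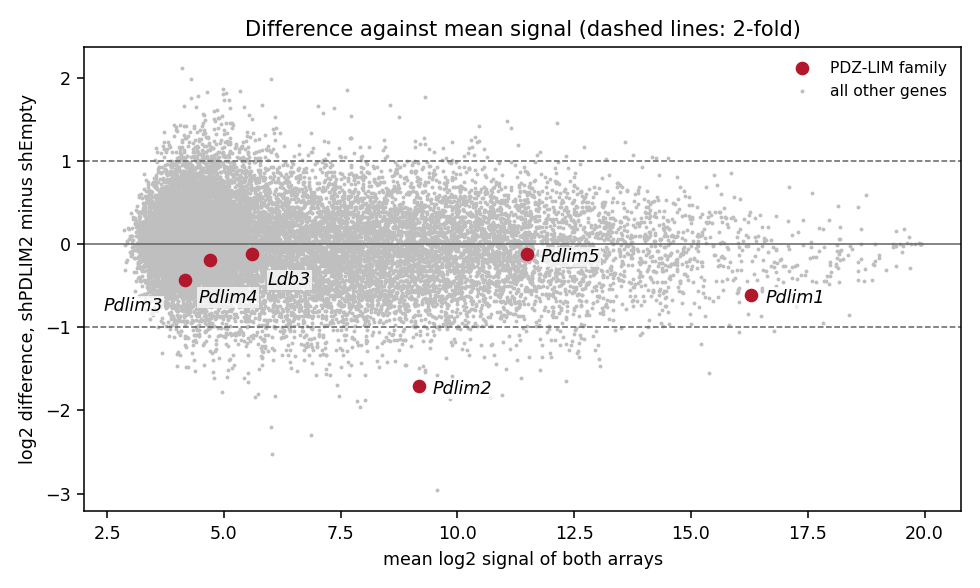
Log2 difference, shPDLIM2 minus shEmpty (vertical axis), against the mean log2 signal of both arrays (horizontal axis) for the PDZ-LIM family (large points) and all other genes (small points), with dashed lines at 2-fold. Pdlim2 lies at -1.71, below nearly all genes of like signal, and the other 5 genes lie between -0.61 and -0.12, within the cloud of all genes.

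All 6 differences stayed negative when the arrays were rescaled in 3 other ways. Pdlim2 ranged from -1.72 after centring on the median difference to -1.63 after quantile normalization or removal of a lowess trend. Pdlim1 ranged from -0.62 to -0.48 and Pdlim5 from -0.13 to -0.05. The difference of Pdlim5 was nearest to 0 after removal of the trend, and that of Ldb3 stayed between -0.13 and -0.12. Pdlim3 and Pdlim4, the genes below background, moved away from 0, to -0.51 and -0.29 after quantile normalization.

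**Figure D3:**
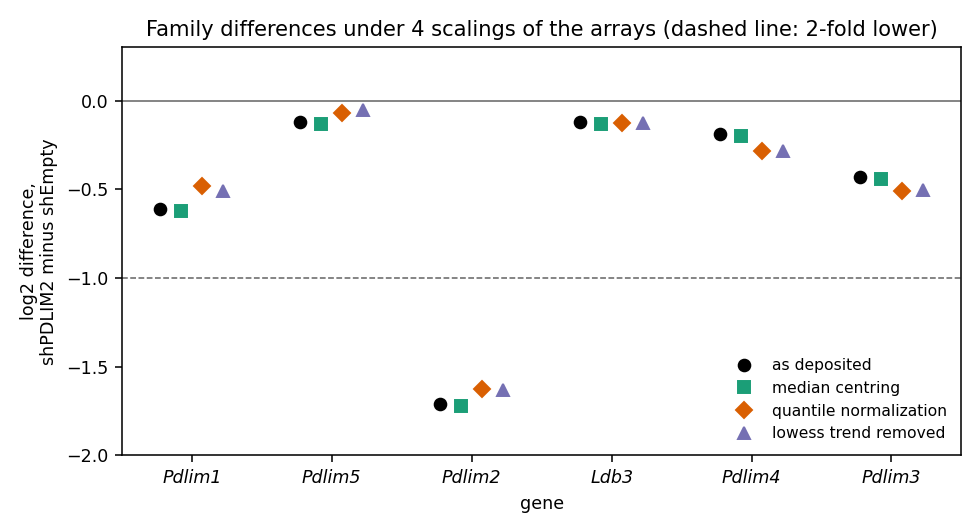
Log2 difference, shPDLIM2 minus shEmpty (vertical axis), of each PDZ-LIM gene (horizontal axis) under 4 scalings of the arrays, shown by symbol, with a dashed line at 2-fold lower. Every point lies below 0, and only those of Pdlim2 lie below the dashed line.

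The promoters of the members were set beside whether a signal was detected. RefSeq promoter sequences (GRCm38.p6, 250 bases before to 50 bases after the annotated start) were given for 6 of the 7 genes, the exception being Pdlim2. They are shown for Pdlim1, a member far above background, for Pdlim4, which was below background, and for Ldb3, which was near it. Capitals mark matches on either strand to the motifs searched, which were TATAAA, the GC box GGGCGG, the cyclic AMP element TGACGTCA, the E-box CAGCTG, and the CArG box of SRF, the NF-κB site and the MEF2 site by their usual consensus. No match overlapped another in these 3 sequences. The Pdlim1 sequence is chr19:40271567-40271866, the Pdlim4 sequence chr11:54068968-54069267 and the Ldb3 sequence chr14:34588632-34588931, each on the minus strand.
Pdlim1: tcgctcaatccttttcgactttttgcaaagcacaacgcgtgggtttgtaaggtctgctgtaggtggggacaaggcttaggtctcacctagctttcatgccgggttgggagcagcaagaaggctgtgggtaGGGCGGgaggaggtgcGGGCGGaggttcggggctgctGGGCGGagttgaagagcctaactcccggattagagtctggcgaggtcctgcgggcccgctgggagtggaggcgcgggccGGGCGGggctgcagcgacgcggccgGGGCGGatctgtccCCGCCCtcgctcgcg
Pdlim4: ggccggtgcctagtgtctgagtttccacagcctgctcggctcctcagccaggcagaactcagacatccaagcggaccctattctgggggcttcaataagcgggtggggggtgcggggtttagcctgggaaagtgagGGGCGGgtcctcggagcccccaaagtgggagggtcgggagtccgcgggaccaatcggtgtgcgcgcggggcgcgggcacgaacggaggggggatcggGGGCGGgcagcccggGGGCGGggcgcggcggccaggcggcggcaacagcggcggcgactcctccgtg
Ldb3: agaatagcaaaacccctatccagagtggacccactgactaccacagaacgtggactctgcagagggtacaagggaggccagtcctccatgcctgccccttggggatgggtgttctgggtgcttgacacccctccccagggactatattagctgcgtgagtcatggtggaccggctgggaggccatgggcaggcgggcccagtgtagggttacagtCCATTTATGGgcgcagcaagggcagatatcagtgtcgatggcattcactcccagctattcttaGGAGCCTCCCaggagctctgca

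The Pdlim1 promoter held 27 CpG dinucleotides and 6 GC boxes, a motif found in 35.7% of 32851 promoters of this length. Pdlim4, without a detected transcript, had a promoter of the same kind, with 31 CpG dinucleotides and 3 GC boxes. Pdlim5, which was detected, had 22 CpG dinucleotides and 1 GC box at the first of 2 annotated starts, together with 2 matches to the NF-κB site, which 8.46% of promoters held. Its second start had 2 CpG dinucleotides, 0 GC boxes and 1 match to TATAAA, which 13.6% of promoters held. The Ldb3 promoter held 6 CpG dinucleotides, close to the median of 7 over all promoters, 1 CArG box (1.63% of promoters) and 1 NF-κB match at either of its 2 annotated starts, whose sequences overlap. The Pdlim3 promoter had 15 CpG dinucleotides, 2 GC boxes, 1 E-box and 1 cyclic AMP element, the last found in 1.79% of promoters. CpG content thus did not separate the detected members from those at background. A match to a motif is a description of the letters only, and which start site LLC cells use was not measured.

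The muscle setting in which Pdlim3 and Ldb3 are best known was checked on the same arrays. Of 30 genes of skeletal and heart muscle, 7 were above background on at least 1 array, and the mean log2 signal over all 30 was 4.89 in shPDLIM2 and 4.86 in shEmpty cells. The troponin Tnnc1, which binds calcium in slow and heart muscle, had the largest difference among these 7, with log2 signals of 6.77 in shPDLIM2 cells and 5.97 in shEmpty cells (0.80). The troponin Tnnt1, at 9.09 in shPDLIM2 and 9.07 in shEmpty cells, the muscle creatine kinase Ckm, Tnnt3, Actc1 and the muscle phosphorylase Pygm were also above background on both arrays, and the myogenic factor Myog on the shEmpty array alone. The titin gene Ttn, the nebulin gene Neb and the skeletal actin Acta1, on which the sarcomere is built, were at background on both arrays. Differences over the 30 genes ran from -1.31 for the myosin Myh8 to 1.13 for the myogenic factor Myf5, both at background on both arrays. Myoz1, Myot and Mypn, Z-disc partners of the family, were at background too. Among 11 contractile genes of smooth muscle, of which 6 were above background on at least 1 array, the smooth muscle myosin Myh11, above it in shEmpty cells alone, stood at -1.06, caldesmon (Cald1), which holds myosin off actin, at -0.98 and the smooth muscle actin Acta2 at 0.57.

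Alpha-actinin, the anchor of the family on actin, differed little between the lines. Actn4 and Actn1, the forms of non-muscle cells, had log2 signals of 14.44 and 12.66 in shPDLIM2 cells, against 14.58 and 12.77 in shEmpty cells. Their differences were -0.14 and -0.11, and those of the muscle forms Actn2 and Actn3 were -0.03 and 0.02. All 4 were smaller than the spread of a single probe set. Of 23 other genes whose proteins are reported to bind members of the family, 18 were lower, beside 49.0% of all genes, with a median of -0.27. Only 15 of the 23 were above background on at least 1 array. At 2-fold, 0 of 23 were called, beside 2.01% of all genes lower and 1.74% higher, shares at which 0 of 23 says little. Ptpn13 and Trip6 were above background in shEmpty cells alone. Among those above background on at least 1 array were Prkce, the epsilon isoform of protein kinase C bound by Pdlim5 (-0.95), Palld, the actin scaffold palladin (-0.76), Prkcb, the beta isoform (-0.73), and Ptpn13, a phosphatase bound by Pdlim4 (-0.67). The alpha isoform of protein kinase C, Prkca, went the other way, with log2 signals of 11.10 in shPDLIM2 cells and 10.89 in shEmpty cells (0.21). Id2, the partner that Pdlim5 retains outside the nucleus, was higher, with log2 signals of 11.18 in shPDLIM2 cells and 10.54 in shEmpty cells, a difference of 0.64.

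The 3 genes outside the family whose proteins also carry a PDZ and a LIM domain were all lower, beside 54.7% of genes above background on both arrays. Lmo7, which joins actin to cell junctions, had log2 signals of 10.81 in shPDLIM2 cells and 11.65 in shEmpty cells (-0.84). Limk1, the LIM kinase that inactivates cofilin, had log2 signals of 7.82 in shPDLIM2 cells and 8.64 in shEmpty cells (-0.82), and its relative Limk2 differed by -0.37. Like Pdlim1, these genes were above background on both arrays and within 2-fold. Limk2, however, was near background, with log2 signals of 5.46 in shPDLIM2 cells and 5.83 in shEmpty cells. Of the 8 epithelial marker genes, 7 were lower, beside 49.0% of all genes, with mean log2 signals of 5.20 in shPDLIM2 and 5.73 in shEmpty cells, but 5 of the 8 were at background on both arrays, among them the claudin gene Cldn4 with the lowest difference (-1.48). Of 7 genes of alveolar and airway epithelium, 3 were lower and 4 higher (median 0.01). Krt18 differed by -0.91, and Krt19 by -1.15 with no signal above background in shPDLIM2 cells. The part of such a difference between the cultures in the lower signals of Pdlim1 and Lmo7 was not tested.

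Other families with LIM domains, and cofactors that bind them, went both ways. So did all genes, of which 49.0% were lower by any amount, and the counts of these short lists are given as a description. Of 7 genes of the zyxin and ajuba family, which sit at focal adhesions, 5 were lower and 2 higher (median -0.03), and Ajuba stood at 0.90. Of 11 genes of the FHL and CRP families, 6 were lower and 5 higher, Crip2 at -0.88 being the lowest. Among paxillin and PINCH genes, 2 of 5 were lower, with Pxn, the focal adhesion scaffold paxillin, at -0.42 and Lims1, which encodes PINCH, at 0.25. In the testin and prickle family, Tes, another focal adhesion protein, was at -0.77 and Prickle1 at 0.48. Of 13 genes of the ABLIM, LASP, EPLIN and MICAL group, 7 were lower and 6 higher. It held the one gene of these lists past 2-fold, Mical1, an enzyme that oxidizes actin, at -1.05 with log2 signals of 6.14 in shPDLIM2 cells and 7.19 in shEmpty cells. Over all genes, 2.01% were at least 2-fold lower and 1.74% at least 2-fold higher. Of 6 genes for nuclear LIM-only proteins and LIM cofactors, 2 were lower and 4 higher. Lmo1 (-0.80) was above background in shEmpty cells alone, and Ldb2 (0.65) in shPDLIM2 cells alone. The plot of LIM and partner genes sets these lists beside the PDZ-LIM family. The family and the 3 genes with a PDZ and a LIM domain were the lists with no positive difference. Within the family, Pdlim2 was the target, and Pdlim3 and Pdlim4 were below background. Pdlim5 and Ldb3 (-0.12 each) differed by less than the spread of a single probe set (0.35). The shared sign is therefore given as a description and not as a trait of the family.

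**Figure D4:**
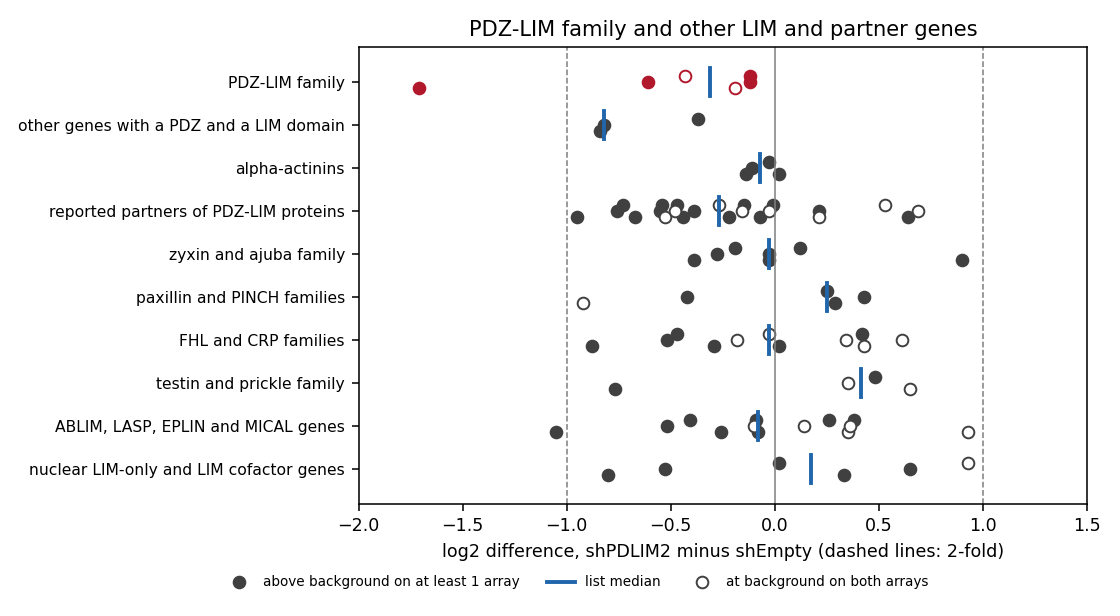
Log2 difference, shPDLIM2 minus shEmpty (horizontal axis), of each gene in the PDZ-LIM family and 9 other lists (rows), with filled points above background on at least 1 array, open points at background on both and a bar at each list's median. The PDZ-LIM family and the 3 other genes with a PDZ and a LIM domain lie entirely below 0, and the alpha-actinins lie between -0.14 and 0.02.

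Genes tied to PDLIM2 through its role in the nucleus were read as well. Rela, which encodes p65, had log2 signals of 12.14 in shPDLIM2 cells and 12.22 in shEmpty cells (-0.08). Stat3 was at -0.39, and Stat4, the first STAT protein described as a target of PDLIM2, was at background on both arrays. The largest differences were those of Ube2d1 (-0.47) and Psmd4 (-0.45), while Cops5 went the other way (0.33). Of 8 such genes measured of 12 listed, 6 were lower and 2 higher, beside 49.0% of all genes lower. At 2-fold, 0 of the 8 were called, beside 2.01% of all genes lower and 1.74% higher, shares at which 0 of 8 says little. These are transcript signals, whereas PDLIM2 is known to act on the proteins.

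The genomic neighbours of Pdlim2 went both ways, as did all genes. Of the 3 nearest protein-coding genes on each side in the RefSeq gene table, 2 were lower and 4 higher, beside 49.0% of all genes lower. Past 2-fold were 0, beside 2.01% of all genes lower and 1.74% higher, shares at which 0 of 6 says little. On one side lay 9930012K11Rik, at background (0.03), Ccar2, a regulator of deacetylase SIRT1 (0.67), and Bin3, a membrane-shaping BAR protein (-0.78). On the other side lay Sorbs3, which encodes the adhesion adaptor vinexin, with log2 signals of 5.58 in shPDLIM2 cells and 5.39 in shEmpty cells (0.19). Beyond it were Ppp3cc, a catalytic subunit of calcineurin (-0.07), and Slc39a14, a zinc and iron transporter (0.88). Of the neighbours measured around Pdlim3, Pdlim4, Pdlim5 and Ldb3, 0 were past 2-fold, which again says little at these shares. Around Pdlim1, 1 of 5 was, the cytochrome P450 gene Cyp2c50, with a log2 difference of 1.21 and a signal above background in shPDLIM2 cells alone. None of the neighbours measured overlapped a member in the gene table.

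**Figure D5:**
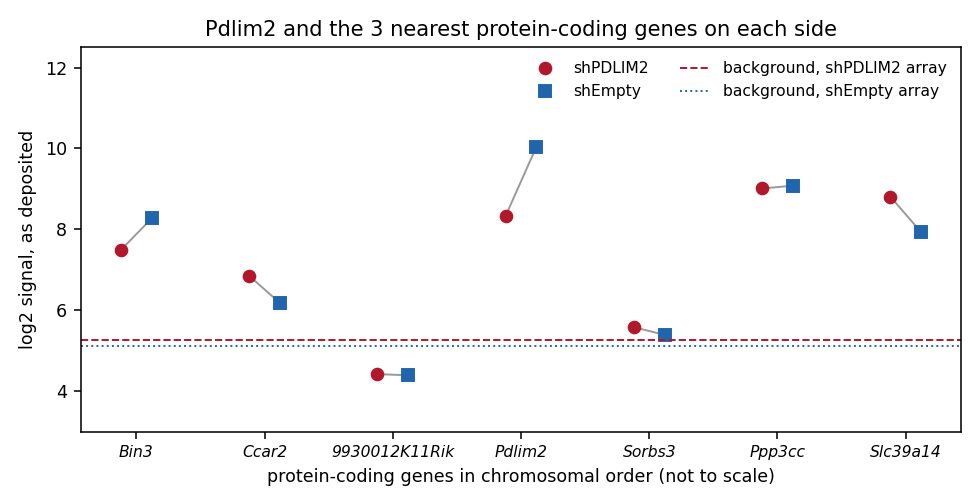
Log2 signal (vertical axis) of Pdlim2 and its 3 nearest protein-coding genes on each side, in chromosomal order and not to scale (horizontal axis), in shPDLIM2 (circles) and shEmpty (squares) LLC cells, with the background level of each array as a line. Pdlim2, at 8.33 in shPDLIM2 and 10.04 in shEmpty cells, has the widest gap between the lines, and the neighbours go in both directions.

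By distance over the 2 log2 signals, the genes most like Pdlim2 were Rpa3, a subunit of the single-strand DNA-binding protein RPA, Rsph3a, a radial spoke protein, Gpr137b-ps, Zmat2, a zinc finger protein of the spliceosome, and Gpr137b. Rpa3 was nearest, at a distance of 0.16, with signals of 8.44 in shPDLIM2 cells and 9.93 in shEmpty cells. Gpr137b and Gpr137b-ps are near copies of each other, so that their probe sets may share signal. The distance is between probe set signals and not between amounts of transcript, it fixes the differences of the genes it picks, and with 2 arrays many genes can share a pattern, so that the likeness is given as a description.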

How the data were processed

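RNA of shPDLIM2 and shEmpty LLC cells was hybridized to 1 Affymetrix Clariom S array per line. The authors deposited log2 signals per probe set. RMA, which subtracts background, usually sets arrays to a common distribution by quantile normalization and summarizes probes, and the Transcriptome Analysis Console are named in the submitters' processing notes. Not given in the sources used here were their versions, the genome build and whether the quantile step was run over these arrays together. The array medians were 5.29 (shPDLIM2) and 5.22 (shEmpty). Precision is limited by having 1 array per line.

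The platform annotation named 19572 of 22206 probe sets, 0 of them with several symbols, and left 2634 unnamed. Probe sets of the same gene were averaged, which gave 19505 genes. Differences are shPDLIM2 minus shEmpty, and a log2 difference of 1 or more in size counts as past 2-fold. The members and gene lists were chosen with earlier results of these data known. The genes named are the members, the alpha-actinins, the 5 genes nearest to Pdlim2 by Euclidean distance, its 3 neighbours on each side, Actb and Gapdh. From each list, genes were drawn from the 4 with the largest differences among those above background on at least 1 array. Not all of these 4 are named for every list. Genes named outside this rule, after their values were seen, were Id2, Prkca, Rela, Stat4, Cyp2c50, Vim, Nkx2-1, Epcam, Cdh1, Cldn4, Ptprc, Tnnt1, Ckm, Actc1 and the muscle genes at background.

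The planned sum of family signals was left out, since levels of different probe sets cannot be set against each other, and the planned comparison of protein sequences was not run. Alternatives were median centring, quantile normalization, removal of a lowess trend (fraction 0.3), a filter on genes at background, other background levels, a fold of 1.5 and single probe sets. The scaling steps were tested on simulated data. Python 3.11.15, numpy 2.4.6, pandas 2.3.3, statsmodels 0.14.6 and matplotlib 3.10.9 were used.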

Additional observations from a re-analysis of the deposited data

How the results depend on the processing

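Each of the 6 family members kept the sign of its difference under median centring, quantile normalization and removal of a lowess trend, and Pdlim2 stayed the one member at least 2-fold lower. With a fold of 1.5 as threshold, 2 members were lower, Pdlim2 and Pdlim1, and 0 were higher, while over all genes 1950 were lower and 1908 higher, against 392 and 339 at 2-fold. With the 99th percentile of the receptor genes, or the 95th percentile of muscle genes, as background level, 3 members were above it in place of 4, Ldb3 being the one lost. The muscle level was 6.85 on the shPDLIM2 array and 6.64 on the shEmpty array. It was set by detected genes, since 7 of the 30 muscle genes exceeded the receptor background. The loss of Ldb3 at that level is therefore no check on background. Over genes above background on at least 1 array, the median of the family without Pdlim2 was -0.12, beside -0.06 over all such genes. The same filter moved the medians of other lists, to -0.38 for the FHL and CRP families, -0.15 for the testin and prickle family (0.42 over all its genes), -0.18 for smooth muscle genes, and -0.91 for 3 epithelial genes. For macrophage and leukocyte genes and for endothelial genes it left 1 gene each, Adgre1 (0.83) and Pecam1 (1.78). These passed through the shPDLIM2 array alone. Krt19 among the epithelial genes, Fhl1 (-0.47) among FHL and CRP genes and Myh11 (-1.06) among smooth muscle genes passed through the shEmpty array alone. The filter itself thus favoured the sign of the differences of these genes, and no conclusion is drawn from the filtered medians of their lists. Over the 126 alternative values for 32 results, 9 moved and 117 did not. A difference or median counted as moved if it shifted by at least the spread of a single probe set (0.35). A count was taken as moved if it changed by more than 1.5-fold. Small differences could thus change sign without being counted, and the fall from 4 to 3 members above background was not counted. The 117 therefore say little about small differences. No paired analysis was possible because each line had 1 array, and no replicate could be left out for the same reason. Signals at background limit what can be said of Pdlim3, Pdlim4 and Ldb3.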
